A study of Mus musculus with 4 samples.

Results

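The genes described here are 7 members of the mouse Ly6 family, Ly6a, Ly6c1, Ly6c2, Ly6d, Ly6e, Ly6g and Ly6i. They were picked by their symbols among the 32285 genes listed for each library, a rule that uses no measured value. All 7 had counts. Over the 63443 cells kept, Ly6e had 528214 unique molecular identifiers (UMIs, each marking 1 captured RNA molecule), Ly6a 399664, Ly6c1 102786, Ly6c2 32578, Ly6d 3546, Ly6i 1018 and Ly6g 406.

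Ly6 proteins are small, cysteine-rich proteins held on the outer face of the cell membrane by a glycosylphosphatidylinositol (GPI) anchor. Several are the antigens by which mouse cells are sorted. Ly6a is Sca-1, used for stem cells, vessels and activated lymphocytes, and is known as an interferon target, as is Ly6e. Ly6c1 and Ly6c2 encode the Ly6C antigen of inflammatory monocytes, memory CD8 T cells and endothelium. Ly6g is the classical neutrophil antigen of the Gr-1 antibody. Ly6d marks early B lineage cells and some epithelia. Ly6i is the least studied of the set and is known from myeloid cells.

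The study grew Pan02, a mouse pancreatic cancer cell line, under the skin of female C57BL/6 mice of 6 to 7 weeks of age. Once tumours were near 50 mm3 the mice received antibodies 3 times a week. The control library came from mice given IgG at 25 mg/kg. The anti-PD-1 library came from mice given anti-PD-1 at 200 µg, labelled as given together with IgG, the anti-LIF library from mice given an antibody against the cytokine LIF at 25 mg/kg, and the combo library from mice given anti-PD-1 and anti-LIF. In each library 3 samples were combined, so each group is 1 library, no comparison between groups could be tested, and differences between mice cannot be told apart from differences between treatments. All tumours carry the same grafted line, and the host is an immune-competent mouse.

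The 7 genes lie on chromosome 15 within 397 kb, from 74762056 to 75159126 in mm10 (GRCm38, GENCODE M21 annotation), and all are annotated as protein coding. Ly6d (ENSMUSG00000034634) spans 74762056 to 74763620 on the minus strand. Ly6e (ENSMUSG00000022587) spans 74955051 to 74959905 on the plus strand. Ly6i (ENSMUSG00000022586) spans 74979534 to 74983430, Ly6a (ENSMUSG00000075602) 74994877 to 74998031, Ly6c1 (ENSMUSG00000079018) 75044018 to 75048830 and Ly6c2 (ENSMUSG00000022584) 75108158 to 75111970, all on the minus strand. Ly6g (ENSMUSG00000022582) spans 75155240 to 75159126 on the plus strand.

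Ly6c1, Ly6c2 and Ly6g are the members with a promoter entry in RefSeq (GRCm38.p6), 3 of the 7. Their main cell classes differed, although neutrophil precursors held both Ly6c2 and Ly6g, so their upstream sequences are shown side by side. RefSeq had 2 entries for each, and the one that starts nearest to the GENCODE gene start was taken. The 250 bases before the RefSeq start are printed 5′ to 3′ on the gene's strand. For Ly6g the last 21 of these lie inside the annotated gene and are left out, so 229 are shown. Capitals mark TATAAA and GAGGAAGT. The windows are chr15:75048838-75049087 on the minus strand for Ly6c1, chr15:75111972-75112221 on the minus strand for Ly6c2 and chr15:75155011-75155239 on the plus strand for Ly6g.
Ly6c1: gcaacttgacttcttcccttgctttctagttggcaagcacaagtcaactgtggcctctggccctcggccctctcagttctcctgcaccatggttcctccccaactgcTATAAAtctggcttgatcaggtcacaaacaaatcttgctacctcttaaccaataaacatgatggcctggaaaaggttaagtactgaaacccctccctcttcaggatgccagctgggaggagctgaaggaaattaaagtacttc
Ly6c2: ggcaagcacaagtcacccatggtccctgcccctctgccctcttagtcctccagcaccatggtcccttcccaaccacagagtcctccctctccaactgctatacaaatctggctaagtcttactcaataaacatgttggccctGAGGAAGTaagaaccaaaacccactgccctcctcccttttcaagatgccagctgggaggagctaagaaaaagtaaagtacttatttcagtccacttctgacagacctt
Ly6g: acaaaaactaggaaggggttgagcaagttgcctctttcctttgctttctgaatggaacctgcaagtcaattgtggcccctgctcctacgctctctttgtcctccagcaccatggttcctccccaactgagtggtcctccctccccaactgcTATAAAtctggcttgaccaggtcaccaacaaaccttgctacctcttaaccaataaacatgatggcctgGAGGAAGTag

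The windows aligned at 81.0% identity for Ly6c1 and Ly6c2 (170 of 210 aligned bases), 86.4% for Ly6c1 and Ly6g (159 of 184) and 82.0% for Ly6c2 and Ly6g (123 of 150). Counted from the GENCODE gene start, TATAAA began 150 bases upstream in Ly6c1 and 78 upstream in Ly6g, and was not in the Ly6c2 window. GAGGAAGT, a motif that was searched after upstream sequence of these genes had been read, began 109 bases upstream in Ly6c2 and 10 upstream in Ly6g, and was not in the Ly6c1 window. Both strands were searched. Of 32817 promoter windows of 250 bases, 12.4% hold TATAAA and 2.44% hold GAGGAAGT. The interferon-type motifs TTCNNNGAA (in 7.01% of windows) and GAAA, any 2 bases, GAAA (in 2.97%) were in none of the 3 windows. A match describes letters only and is no evidence of binding.

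The copies also bear on the counting. The longest coding transcripts of Ly6c1 and Ly6c2 were identical at 97.6% of aligned bases (802 of 822) and at 98.0% over their last 300 bases, the part a 3′ kit reads. How reads that fit both were assigned is not given in the sources used here, so a low level of either gene beside a high level of the other is uncertain. Over the last 300 bases of each, Ly6a was identical at 87.5% of aligned bases to Ly6c1 (252 of 288), at 86.3% to Ly6c2, at 86.2% to Ly6g and at 87.6% to Ly6i.

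In control, then anti-PD-1, then anti-LIF, then combo, the order of every run of 4 values below, 18640, 14392, 14014 and 16397 cells were kept, with medians of 2171, 1731, 1674.5 and 2288 UMIs. Cells were sorted into 15 classes by fixed markers, none a Ly6 gene, and 79.86% of them were placed. A class name below means cells that carry that class's markers, not cells checked by protein. The control library stood apart: T cells were 35.7% of its cells against 8.12% to 11.4% elsewhere, and macrophages 2.79% against 23.0% to 26.2%. Xist, read here as a sign of host cells because the hosts are female, was at 4.81 to 11.8 counts per 1000000 UMIs (CPM) in the cancer class and at 104 to 203 CPM in T cells, macrophages and endothelial cells. In the fibroblast class it was 47.4 CPM in control against 69.0 to 146 CPM elsewhere, so the control fibroblast class holds Xist-poor cells. Ratios to control are therefore given for fibroblast subsets only, while the orders of classes use the whole class. Xist differed between libraries in those subsets as well. Krt18, a cancer class marker, was also counted in T and NK cells, neutrophils, monocytes, macrophages, dendritic cells and mast cells, at 10.1 to 128 CPM against 1000 CPM and more in cancer cells, and its source there was not tested. Each pair of libraries shared 277 to 392 barcodes (1.62% to 2.27%).

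Levels are CPM of summed cells: the UMIs of a gene in all cells of a class in a library, scaled to the total UMIs of those cells. Intervals are exact 95% intervals and cover counting error only, not differences between mice. Ratios are log2 ratios with 0.5 counts added to each sum, and a difference of at least 2-fold is called. A change in a class can come from fewer cells that carry the gene or from less RNA in each, and shares of cells with a UMI are given beside the levels for that reason.

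The members lay in different cells of the tumour. Ly6a and Ly6e were present in every class with at least 50 cells. Ly6c1 was a gene of endothelium and fibroblasts, Ly6c2 of monocytes, CD8 T cells and NK cells, and Ly6g of neutrophils. Ly6i was a gene of monocytes and neutrophils, and Ly6d of B cells, plasma cells and a small group of cells in the cancer class. Between members, levels across 46 sums of class and library ran together most for Ly6a and Ly6c1 (Pearson's r = 0.68) and for Ly6c2 and Ly6i (0.56), and ran opposite for Ly6c1 and Ly6c2 (-0.43). These are descriptions over points that share libraries, cells and depth.

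**Figure D1:**
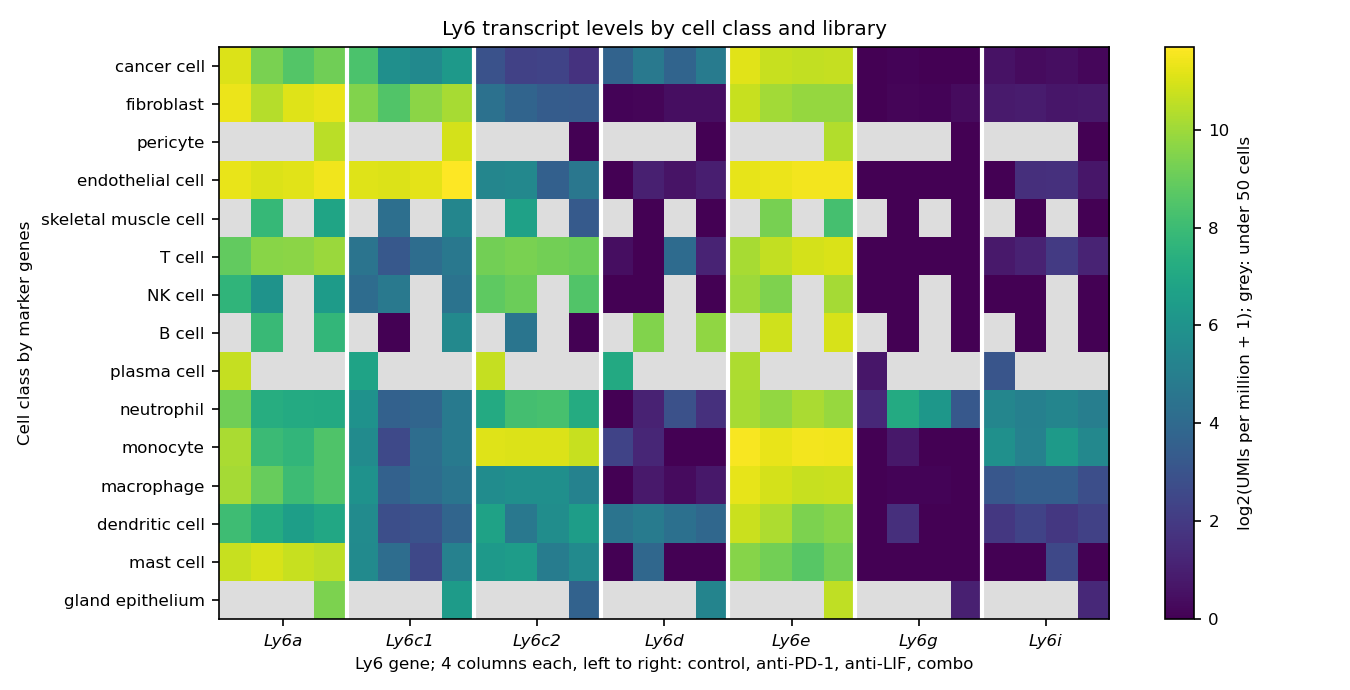
Level of each Ly6 gene in each cell class and library as log2(CPM + 1), with classes of under 50 cells in grey. Ly6c1 is high in endothelial cells (2171 to 3306 CPM) and low in monocytes (4.913 to 49.26 CPM), while Ly6c2 is high in monocytes (1698 to 2225 CPM).

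Ly6a, the Sca-1 antigen, was lower in cancer cells of all 3 treated libraries. Its level there was 2180 CPM in control, 645.8 CPM with anti-PD-1, 379.6 CPM with anti-LIF and 566.2 CPM in combo. The control stood above all treated libraries, and anti-LIF was lowest. The log2 ratio to control was -1.76 (95% interval -1.78 to -1.73) for anti-PD-1, -2.52 (-2.56 to -2.48) for anti-LIF and -1.95 (-1.97 to -1.92) for combo, or 3.38-, 5.74- and 3.85-fold lower. Only 1.08%, 0.949% and 1.53% of the genes measured in cancer cells had a lower ratio. Ly6a in combo was 0.19 log2 below anti-PD-1 (-0.22 to -0.16) and 0.58 log2 above anti-LIF (0.53 to 0.62), comparisons that do not use the control.

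Fewer cancer cells had any Ly6a count. A UMI of it was found in 91.8% of cancer cells in control and in 64.9%, 48.5% and 61.2% in the treated libraries. Those cells differed in depth, with medians of 9264, 6155, 4046 and 6773.5 UMIs. With every cell thinned to 1000 UMIs the shares for Ly6a were 69.8%, 33.4%, 22.5% and 28.8%, in the same order. NK cells, the class with the least Ly6a, held 200.5 CPM in control, 64.22 CPM with anti-PD-1 and 84.74 CPM in combo.

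The difference in Ly6a was present in dividing and in non-dividing cancer cells. Dividing cells held 1734, 421.8, 252.8 and 339.2 CPM, and the others 2593, 1000, 698.4 and 1125 CPM. In each library the dividing cells had less Ly6a. They also had less Xist, at 3.51, 2.18, 3.55 and 5.85 CPM against 6.02, 10.3, 22.4 and 26.5 CPM in the others. The part of host cells in this gap was not tested. Cancer cells with at least 2 of Lif, Ereg and Il11, cytokine and growth factor genes of this line, held 2021, 550.7, 305.1 and 343.1 CPM of Ly6a, and those with fewer 2375, 698.7, 399.2 and 647.7 CPM. Xist was 2.7, 1.37, 3.55 and 2.73 CPM in the former and 7.4, 7.55, 10.3 and 15.1 CPM in the latter. In cancer cells with no UMI of Xist or Epcam, a stricter sign of the graft, Ly6a was 2155, 606.6, 318.7 and 432.5 CPM, giving log2 ratios of -1.83, -2.76 and -2.32.

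T cells went the other way for Ly6a. Their level was 476.7 CPM in control, 775.4 CPM with anti-PD-1, 811.9 CPM with anti-LIF and 989.4 CPM in combo, lowest in control and highest in combo. The log2 ratio was 0.70 (0.63 to 0.77), 0.77 (0.68 to 0.85) and 1.05 (0.99 to 1.12), so only combo passed 2-fold. The share of T cells with a Ly6a UMI was 43.5%, 54.2%, 52.0% and 59.0%, and 31.2%, 48.2%, 45.2% and 50.3% after thinning. Combo exceeded anti-PD-1 by 0.35 log2 (0.27 to 0.44) and anti-LIF by 0.29 (0.19 to 0.38). Scaled from Krt18, cancer cell RNA would bring 103, 27.1, 6.31 and 14.8 CPM of Ly6a into T cells, and its part in the result was not tested.

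The T cell subsets held different levels of Ly6a. Cells with Cd8a or Cd8b1 held 407.3 CPM in control, 746.7 with anti-PD-1, 710.1 with anti-LIF and 717 CPM in combo, log2 ratios of 0.87, 0.80 and 0.82. Effector CD8 T cells held 370.5, 708.9, 656.9 and 766.7 CPM. Naive or memory CD8 T cells had enough cells in control, at 481 CPM, and in combo, at 490.9 CPM. CD4 T cells held 655.6, 580.7, 886.5 and 1030 CPM, with an interval that spans 0 for anti-PD-1 (-0.44 to 0.08). Regulatory T cells had the highest Ly6a among these subsets, at 1318, 1440, 1171 and 1566 CPM, with log2 ratios between -0.17 and 0.25. Gamma delta T cells lay below control for Ly6a with anti-LIF and in combo, where the class as a whole lay above it. They held 625.4 CPM in 127 control cells, 415.5 CPM in 62 cells with anti-LIF and 367.6 CPM in 58 cells of combo. Their log2 ratios were -0.57 (-1.22 to 0.00) for anti-LIF and -0.75 (-1.37 to -0.20) for combo. The 36 such cells with anti-PD-1 held 690.9 CPM, above the control level. These levels rest on 109, 31, 30 and 34 UMIs, and 10 of the control cells held 47.7% of theirs. The makeup of the T cell class also differed, with 4508 CD8 T cells of 6659 T cells in control and 555 of 1345 in combo.

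**Figure D2:**
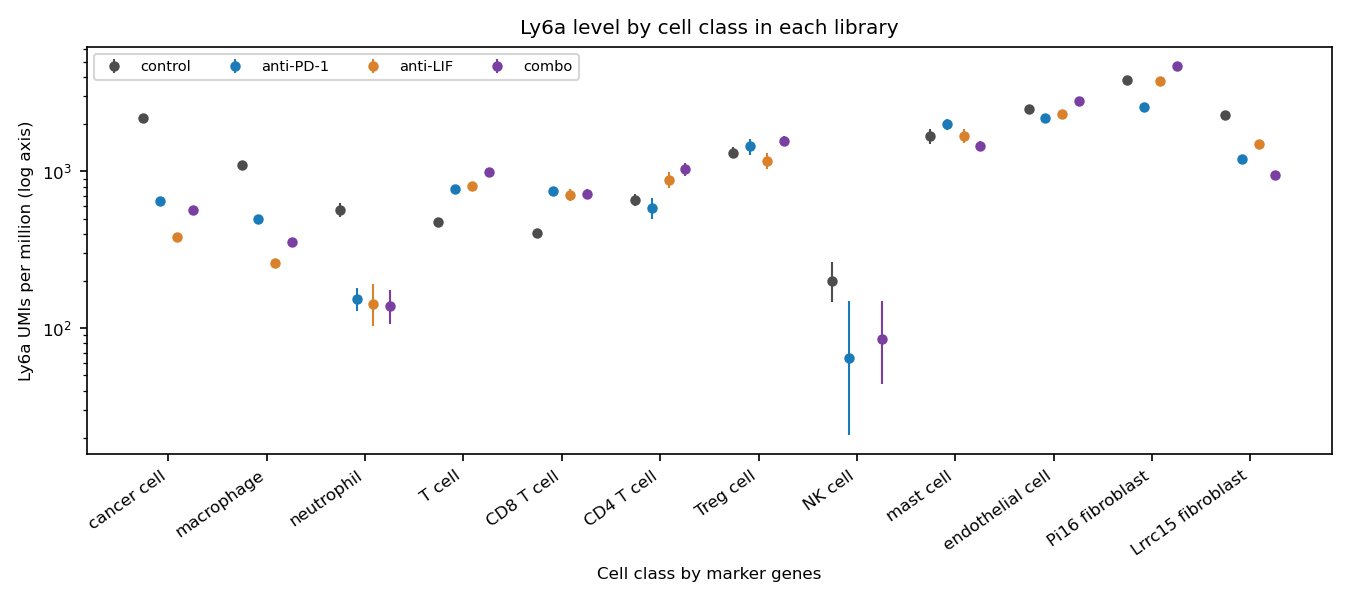
Ly6a in CPM on a log axis in selected classes and subsets, 1 point per library with at least 50 cells, with its exact Poisson 95% interval. The control point lies above the treated points in cancer cells (2180 against 379.6 to 645.8 CPM) and below them in T cells (476.7 against 775.4 to 989.4 CPM).

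In macrophages Ly6a was 1097 CPM in control, 497.3 with anti-PD-1, 260.7 with anti-LIF and 352.5 CPM in combo, with control highest and anti-LIF lowest as in cancer cells. The log2 ratios were -1.14 (-1.21 to -1.07), -2.07 (-2.15 to -1.99) and -1.64 (-1.71 to -1.57). A Ly6a UMI was in 71.3%, 39.9%, 23.4% and 31.3% of macrophages. Their median depths were 3139, 1814.5, 1944 and 3472 UMIs, and these shares are from cells that were not thinned. Krt18 in macrophages was 62.5, 54.1, 42.5 and 47.5 CPM. Scaled from it, cancer cell RNA would bring 136, 33.3, 10.2 and 20.2 CPM of Ly6a into macrophages. These scaled values include the lower Ly6a level of the treated cancer cells themselves. Scaled from Col1a1, fibroblast RNA would bring 69.7, 22.6, 23.7 and 31.7 CPM. The part of either in the result was not tested. Macrophages with a UMI of Xist held 1116, 459.2, 231.7 and 368.1 CPM of Ly6a. Resident macrophages, with at least 2 of Lyve1, Cd163, Folr2 and Cbr2, numbered 12, 484, 772 and 1153, and those of the treated libraries held 356.4, 390.4 and 502.9 CPM of Ly6a. In the remaining macrophages Ly6a was 1105, 539.4, 200 and 247.5 CPM, log2 ratios of -1.03, -2.47 and -2.16.

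Neutrophils held 569.6 CPM of Ly6a in control against 152.9, 142.9 and 137.6 CPM under treatment, log2 ratios of -1.89 (-2.19 to -1.61), -1.98 (-2.48 to -1.54) and -2.04 (-2.45 to -1.67). Krt18 in the same cells was 128, 66.2, 58.5 and 53.4 CPM, and scaled from it cancer cell RNA would bring 279, 40.7, 14.1 and 22.7 CPM of Ly6a. Its part in the result was not tested. In monocytes the control level of 1182 CPM came from 93 cells, of which 10 held 88.2% of the Ly6a UMIs, against 247.7, 205 and 351.8 CPM in the treated libraries. With at least 3 distinct markers asked of each monocyte the log2 ratios shrank from -2.25, -2.53 and -1.75 to -0.27, -0.05 and 0.27, so no direction is given for monocytes.

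Vessels and fibroblasts held the most Ly6a, and their ratios to control differed from each other. Endothelial cells held 2513, 2182, 2327 and 2805 CPM of Ly6a, with log2 ratios of -0.20, -0.11 and 0.16. Fibroblasts with at least 2 of Pi16, Dpt and Cd34, genes of a universal fibroblast state of connective tissue, held 3828, 2562, 3772 and 4681 CPM, with log2 ratios of -0.58, -0.02 and 0.29. Xist in these Pi16 fibroblasts was 112, 92.4, 169 and 200 CPM. The 179, 59, 209 and 648 of them with a UMI of Xist held 3939, 3675, 3766 and 4663 CPM of Ly6a. Among those cells anti-PD-1 lay nearer to control. Fibroblasts with at least 2 of Lrrc15, Cthrc1 and Postn, genes of matrix-producing tumour fibroblasts, held 2282, 1198, 1501 and 949.5 CPM, log2 ratios of -0.93, -0.60 and -1.27. Xist in these Lrrc15 fibroblasts was 76.0, 98.1, 120 and 114 CPM. Mast cells held 1671, 1992, 1679 and 1454 CPM of Ly6a. Across classes with 50 cells in at least 2 libraries the order for Ly6a ran from endothelial cells, fibroblasts, mast cells and cancer cells through T cells, macrophages, monocytes, neutrophils, B cells and dendritic cells to muscle and NK cells, and each neighbouring pair overlapped in its range over libraries.

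Ly6e, a broadly expressed member known as an interferon target, was also lower in cancer cells and macrophages of the treated libraries and higher in their T cells. In cancer cells it was 2327 CPM in control, 1693 with anti-PD-1, 1560 with anti-LIF and 1607 CPM in combo, log2 ratios of -0.46 (-0.48 to -0.44), -0.58 (-0.60 to -0.56) and -0.53 (-0.55 to -0.52). Detection stayed high, with a Ly6e UMI in 97.2%, 92.9%, 89.3% and 91.9% of cancer cells. In macrophages it was 2442, 1951, 1690 and 1734 CPM, log2 ratios of -0.32, -0.53 and -0.49. Without resident macrophages it was 2452, 1971, 1345 and 1318 CPM of Ly6e, log2 ratios of -0.31, -0.87 and -0.90, and the resident ones of the treated libraries held 1884, 2426 and 2331 CPM. No Ly6e difference in these classes reached 2-fold.

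In T cells Ly6e was 1129 CPM in control, 1576 with anti-PD-1, 1991 with anti-LIF and 2077 CPM in combo. The log2 ratios were 0.48 (0.43 to 0.53), 0.82 (0.76 to 0.87) and 0.88 (0.83 to 0.92), and the share with a UMI was 71.5%, 77.7%, 81.0% and 86.7%. CD8 T cells held 998.4, 1440, 1704 and 1659 CPM. Regulatory T cells held 2294, 2524, 2868 and 2792 CPM. Pi16 fibroblasts barely differed, at 1181, 1189, 1152 and 1204 CPM of Ly6e. Monocytes (2488 to 3025 CPM) and endothelial cells (2449 to 2878 CPM) overlapped as the highest classes, and monocytes did not overlap with the next, cancer cells (1560 to 2327 CPM). Migratory dendritic cells, placed by Ccr7, Fscn1 and Ccl22, went from 994.6 CPM of Ly6e in control to 384.5, 259.8 and 309.8 CPM. Of the 68 control cells, 10 held 78.7% of the 310 Ly6e UMIs, with 62 in 1 cell.

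Ly6c1, the Ly6C gene of vessels, was highest in endothelial cells. It was 2220 CPM in control, 2171 with anti-PD-1, 2342 with anti-LIF and 3306 CPM in combo, so 3 libraries lay together and combo above them. Log2 ratios to control were -0.03 (-0.12 to 0.06), 0.08 (0.00 to 0.15) and 0.57 (0.51 to 0.64), and combo exceeded anti-PD-1 by 0.61 (0.54 to 0.67) and anti-LIF by 0.50 (0.45 to 0.55). A Ly6c1 UMI was found in 81.1%, 79.7%, 82.5% and 88.9% of endothelial cells, and in 72.9%, 71.7%, 76.2% and 85.1% after thinning. Pi16 fibroblasts held 1753, 1139, 1536 and 2314 CPM, again highest in combo. The 50 pericytes of combo held 1948 CPM.

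In cancer cells Ly6c1 was 335.1 CPM in control, 55.53 with anti-PD-1, 45.15 with anti-LIF and 79.71 CPM in combo. The control lay above all treated libraries, as for Ly6a. The log2 ratios were -2.59 (-2.68 to -2.51), -2.89 (-3.0 to -2.78) and -2.07 (-2.14 to -2.01), or 6.03-, 7.42- and 4.20-fold lower. A Ly6c1 UMI was in 45.1%, 17.8%, 13.7% and 27.1% of cancer cells and, after thinning, in 19.9%, 5.18%, 4.44% and 7.17%. The range of Ly6c1 in endothelial cells did not overlap with that in fibroblasts (369.7 to 1127 CPM), nor that in fibroblasts with that in cancer cells.

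Ly6c2, the Ly6C gene of monocytes, was 2225 CPM in control monocytes, 2162 with anti-PD-1, 2187 with anti-LIF and 1698 CPM in combo. The first 3 libraries were within 0.04 log2 of each other, and combo was lower by a log2 ratio of -0.39 (-0.53 to -0.25). The UMIs were concentrated: 10 monocytes held 50.4%, 30.2%, 22.6% and 29.6% of them, and 1 cell with anti-PD-1 held 179. The interval covers counting error only and does not take this into account. A Ly6c2 UMI was in 68 of 93, 318 of 491, 246 of 400 and 207 of 346 monocytes. The monocyte range did not overlap with that of T cells (530.9 to 640.5 CPM), the next among classes with 50 cells in at least 2 libraries. In macrophages Ly6c2 was 51.28, 55.8, 55.05 and 35.46 CPM.

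Among T cells Ly6c2 lay mainly in CD8 T cells, where Ly6C is an antigen of memory and effector cells. It was 670 CPM in control, 880.6 with anti-PD-1, 1023 with anti-LIF and 1111 CPM in combo, log2 ratios of 0.39 (0.31 to 0.48), 0.61 (0.50 to 0.72) and 0.73 (0.63 to 0.83). Control was lowest and no ratio reached 2-fold. Effector CD8 T cells held 516.2, 830.1, 918.3 and 1008 CPM of Ly6c2, and the naive or memory ones 1256 CPM in control and 1135 CPM in combo. CD4 T cells held 140.6, 18.38, 124.1 and 70.26 CPM and regulatory T cells 53.02, 25.09, 32.88 and 10.97 CPM. Over all T cells, whose CD8 share differed between libraries, Ly6c2 was 593.7, 640.5, 588.1 and 530.9 CPM. NK cells held 442.7 CPM in control, 539.5 with anti-PD-1 and 360.2 CPM in combo. The 247 plasma cells of control, antibody-secreting cells, held 1632 CPM.

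The split between Ly6c1 and Ly6c2 was nearly complete. Ly6c1 made up 98.2%, 98.1%, 99.5% and 99.3% of the UMIs of the pair in endothelial cells and 98.1%, 93.7%, 91.8% and 97.2% in cancer cells. It made up 2.17%, 0.227%, 0.783% and 1.52% in monocytes and 3.47%, 1.29%, 2.79% and 4.46% in T cells. Macrophages lay between, at 54.6%, 16.7%, 22.9% and 39.0%, from 137, 139, 180 and 392 Ly6c1 UMIs. Macrophages with a UMI of both genes numbered only 4, 4, 8 and 14. With transcripts 97.6% alike, the files do not show whether the small share of the minor gene is its own RNA.

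**Figure D3:**
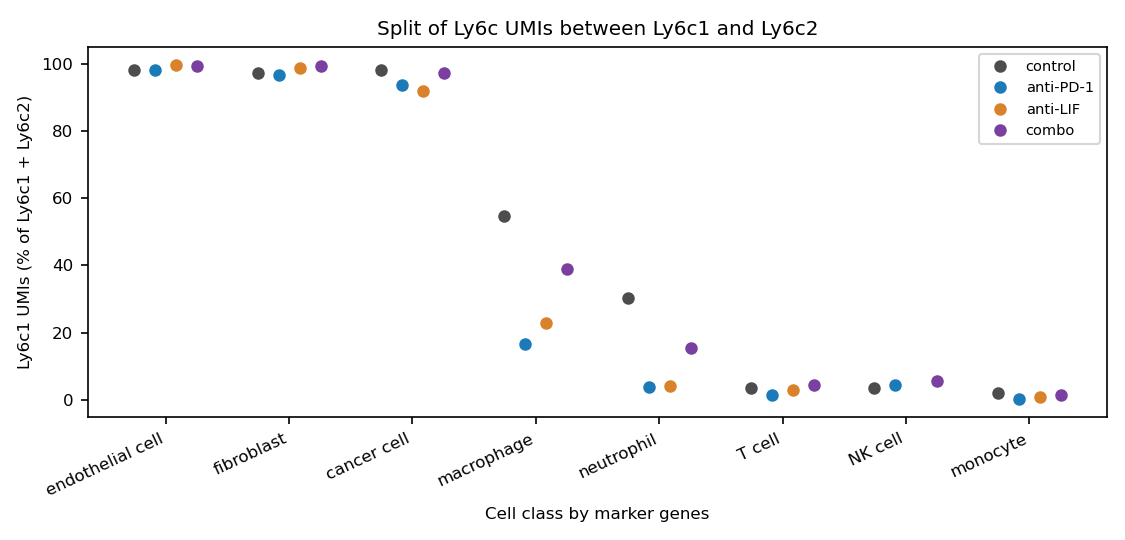
Ly6c1 as a percentage of the summed Ly6c1 and Ly6c2 UMIs in selected classes, by library. Endothelial cells lie between 98.1% and 99.5%, monocytes between 0.227% and 2.17%, and macrophages range from 16.7% to 54.6%.

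Ly6g, the neutrophil antigen, was nearly absent from control neutrophils. It had 1 UMI in 538 control neutrophils, 125 in 579 with anti-PD-1, 22 in 240 with anti-LIF and 4 in 387 of combo, or 1.53, 142.7, 71.45 and 8.22 CPM. Anti-PD-1 and anti-LIF were high, and control and combo low. The log2 ratio of anti-PD-1 to control was 5.97 with an interval of 4.04 to 11.86, wide because it rests on 1 control UMI, and combo to anti-PD-1 was -3.95 (-6.02 to -2.73). Cells with a Ly6g UMI were 1 of 538 (0.186%), 46 of 579 (7.94%), 15 of 240 (6.25%) and 4 of 387 (1.03%), at close median depths of 856.5, 936, 848 and 858 UMIs. Cells that were placed in no class held a further 208 Ly6g UMIs with anti-PD-1, 22 with anti-LIF, 4 in combo and 2 in control, more than neutrophils did with anti-PD-1. Neutrophils held 89.4% of the Ly6g UMIs in placed cells, and T, NK, B, mast and endothelial cells held none in classes of at least 50 cells.

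Ly6g was most abundant in neutrophil precursors, cells with at least 2 of Camp, Ngp, Ltf, Mpo and Elane, which encode granule proteins made in the marrow. There were 30 such cells with anti-PD-1, at 1183 CPM of Ly6g, 15 with anti-LIF, at 371.5 CPM, and none in control or combo. Without them Ly6g was 1.53, 61.5, 45.8 and 8.22 CPM, and the log2 ratio of anti-PD-1 to control was 4.76 (2.79 to 10.66). The libraries kept their order without the precursors.

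Other neutrophil genes are given beside Ly6g, and their part in its differences was not tested. Csf3r, the receptor of the granulocyte growth factor G-CSF, was 1471, 1385, 1065 and 1598 CPM, highest in combo. Retnlg, a resistin-like secreted protein of neutrophils, was 242.8, 2902, 3154 and 1089 CPM, and 242.8, 1597, 1756 and 1089 CPM without precursors. Mmp8, a granule collagenase, was 88.57, 820.5, 740.5 and 131.5 CPM, with the same high and low libraries as Ly6g. Cxcr2, the chemokine receptor of circulating neutrophils, was 583.4, 1210, 951.6 and 940.9 CPM. Csf3r, Retnlg, Mmp8 and Cxcr2 are among the 10 markers that placed these cells.

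**Figure D4:**
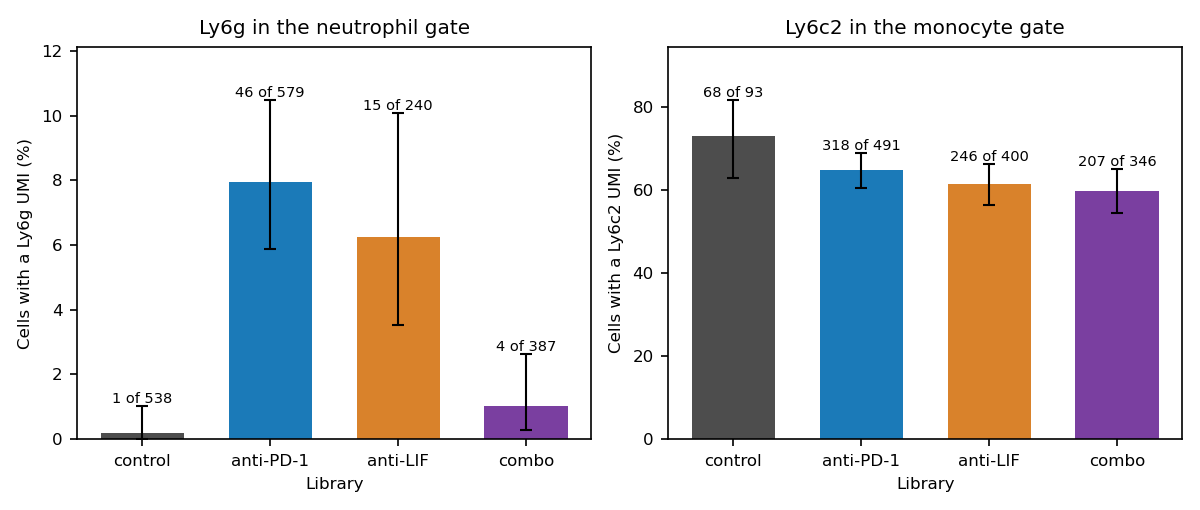
Percentage of cells with a UMI of Ly6g in neutrophils and of Ly6c2 in monocytes, by library, with exact binomial 95% intervals. Ly6g was found in 7.94% and 6.25% of neutrophils with anti-PD-1 and anti-LIF, against 0.186% in control and 1.03% in combo.

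Ly6c2 in neutrophils was 140.5 CPM in control, 292.2 with anti-PD-1, 311.8 with anti-LIF and 145.9 CPM in combo, log2 ratios of 1.05, 1.15 and 0.06. Its precursors were high, at 2383 CPM with anti-PD-1 and 1486 CPM with anti-LIF. Without them Ly6c2 was 140.5, 129.2, 211.5 and 145.9 CPM, log2 ratios of -0.12 (-0.54 to 0.30), 0.59 (0.10 to 1.08) and 0.06, so neither 2-fold call held among the remaining cells.

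Ly6i was a gene of low counts in myeloid cells. Monocytes held 57.47, 34.39, 80.94 and 43.35 CPM, from 14, 49, 75 and 43 UMIs, and neutrophils 39.7, 33.1, 38.98 and 30.82 CPM. These ranges overlapped, and both lay above the 8.10, 10.1, 10.3 and 5.95 CPM of macrophages. The macrophage ratios of Ly6i to control all had intervals that span 0. Resident macrophages held 3.86, 2.86 and 0.843 CPM in the treated libraries, against 12.0, 13.8 and 9.51 CPM in the remaining macrophages.

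Over all libraries summed, Ly6d was highest in B cells among the classes. It was 714.6 CPM in 58 B cells with anti-PD-1, 625.7 CPM in 46 with anti-LIF and 867.7 CPM in 71 of combo. A Ly6d UMI was in 29, 21 and 34 of these cells. The 14 B cells of control held 5 Ly6d UMIs, or 173.6 CPM (56.36 to 405). The 247 plasma cells of control held 135.2 CPM of Ly6d, from 219 UMIs. Over all libraries plasma cells and B cells each held 9.13% of the Ly6d UMIs in sorted cells. Plasmacytoid dendritic cells, producers of type I interferon, held 729.5 to 1637 CPM of Ly6d in 3 to 6 cells a library.

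Most Ly6d UMIs in sorted cells, 70.2%, were nevertheless in the cancer class, at 12.12, 25.32, 12.64 and 28.48 CPM. They lay in 75, 50, 50 and 88 cells. These 263 cells differed in other genes from the 10038 without Ly6d: Xist was 187 against 3.01 CPM, Epcam, an epithelial adhesion gene, 1480 against 6.84 CPM, Krt19, a duct keratin, 642 against 11.9 CPM, Wfdc18, a gland secretory gene, 607 against 2.70 CPM, and Msln, mesothelin, 13.2 against 114 CPM. The Xist level is that of host classes, so the label of cancer cell goes against these values, and no type is given to them. In cancer cells with no UMI of Xist or Epcam, Ly6d was 0.0922, 0.928, 0.477 and 0.469 CPM. The 427 gland epithelium cells of combo held 37.92 CPM of Ly6d, 74 of their 1951346 UMIs. The gland cells of the other libraries were few and held more. Ly6d made up 22 of 33190 UMIs in 7 control cells and 10 of 45997 in 17 cells with anti-PD-1. It made up 85 of 115912 UMIs in 28 cells with anti-LIF, where 10 cells held 96.5% of it. The Ly6d ratios of the cancer class to control, 1.06, 0.06 and 1.23 log2, rest on these 263 cells.

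Counted over the family, 5 members had at least 50 UMIs in each cancer cell comparison. Of these, 2, 2 and 3 were at least 2-fold lower than control with anti-PD-1, with anti-LIF and in combo, where 3.30%, 5.20% and 4.65% of all genes measured were. Ly6a and Ly6c1 made up these counts, joined in combo by Ly6c2, which had 301 UMIs in control and 60 in combo. At least 2-fold higher were 1, 0 and 1, each time Ly6d, against 3.99%, 8.40% and 6.73% of all genes. The median log2 ratio of all genes was 0.16, 0.20 and 0.19. In macrophages 2 of 5 members, Ly6a and Ly6c1, were called lower in each treated library, against 2.74%, 5.34% and 5.90% of genes. The Ly6c1 calls rest on 137 control UMIs, of which 10 of 520 cells held 67.2% and 1 cell held 33. Scaled from Krt18 and from Col1a1, cancer cell and fibroblast RNA would bring 20.9 and 19.0 CPM to the 61.63 CPM of Ly6c1 there. Their part in the calls was not tested. In T cells 4 members were measured, of which 0, 0 and 1 were called higher (Ly6a in combo), against 4.43%, 6.37% and 6.03% of genes, and 1, 0 and 0 lower, against 2.34%, 4.94% and 4.23%. The lower call was Ly6c1 with anti-PD-1, at 8.36 against 21.34 CPM and from 22 UMIs. Scaled in the same way, cancer cell and fibroblast RNA would bring 15.8 and 8.47 CPM to the control level. Their part in this call was not tested. In neutrophils 2 of 6, 1 of 3 and 0 of 4 members were called higher (8.03%, 6.47% and 5.95% of genes) and 2, 1 and 2 lower (5.35%, 6.23% and 4.22%). The higher calls were Ly6c2 and Ly6g with anti-PD-1 and Ly6c2 with anti-LIF, and the lower ones Ly6a in each library and Ly6c1 in 2 of them. The Ly6c1 calls, with anti-PD-1 and in combo, rest on 40 control UMIs against 10 and 13. Scaled in the same way, cancer cell and fibroblast RNA would bring 42.9 and 19.4 CPM to the 61.08 CPM of Ly6c1 in control neutrophils. Their part in these calls was not tested. Without neutrophil precursors 1, 0 and 0 were called higher, Ly6g with anti-PD-1, and 2, 1 and 2 lower. In endothelial cells 0, 1 and 0 of 4 members were called lower (1.8%, 2.76% and 2.45% of genes), the call being Ly6c2 with anti-LIF from 21 UMIs.

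**Figure D5:**
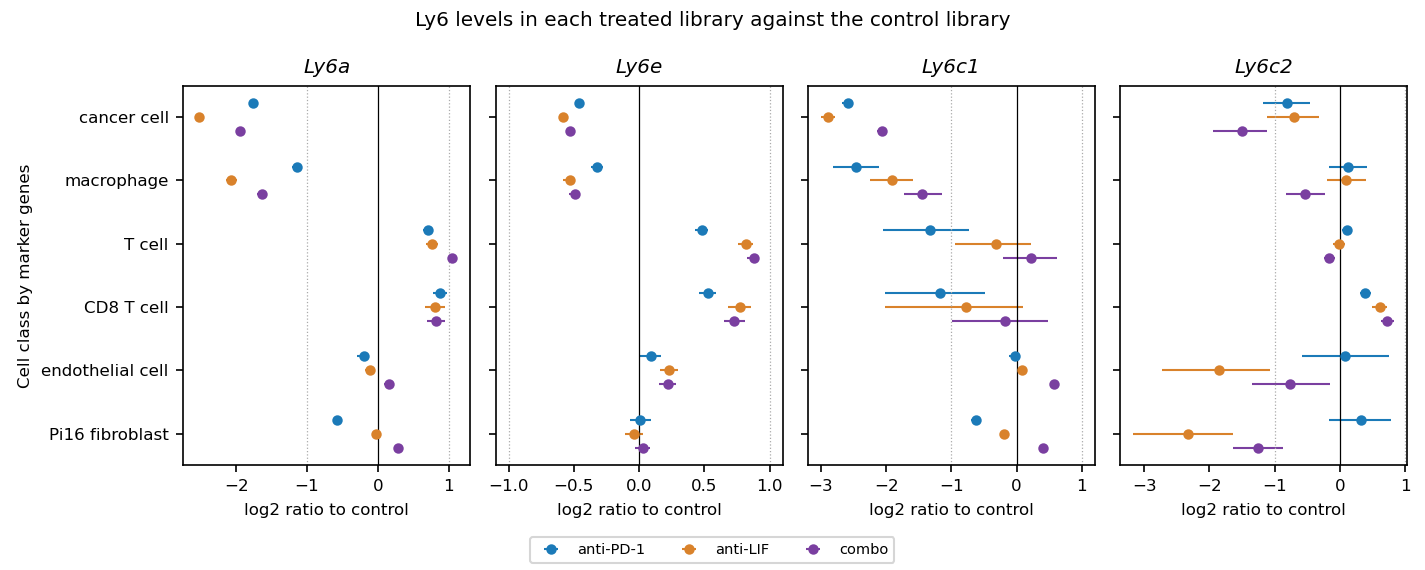
Log2 ratio of each treated library to control for Ly6a, Ly6e, Ly6c1 and Ly6c2 where counts were enough. Selected classes and subsets are shown, with exact 95% intervals for counting error. Ly6a lies at -1.76 to -2.52 in cancer cells and at 0.70 to 1.05 in T cells, and the x range differs between panels.

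Because Ly6a and Ly6e are known interferon targets, a list of 22 interferon gamma targets was described beside them. In cancer cells all 22 were measured, and 21, 22 and 21 were below 0 in the treated libraries. At least 2-fold lower were 6, 20 and 20, against 3.30%, 5.20% and 4.65% of all genes. At least 2-fold higher were 0, 0 and 1, against 3.99%, 8.40% and 6.73%. The medians were -0.81, -2.18 and -2.36, against 0.16, 0.20 and 0.19 for all genes. With anti-PD-1 the 3 farthest were Cxcl10, a T cell attracting chemokine, from 626 to 226.6 CPM (-1.47), Cd274, which encodes PD-L1, from 89.38 to 34.84 CPM (-1.36), and Gbp2, a guanylate-binding protein, from 1219 to 515.5 CPM (-1.24). Cd274 was 10.53 CPM with anti-LIF (-3.08) and 7.775 CPM in combo (-3.52), and Gbp2 170.5 (-2.84) and 145.8 CPM (-3.06). Gbp4 went from 61.21 CPM to 8.3 (-2.88) and 7.505 CPM (-3.02).

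The list of type I interferon targets had 16 genes measured in cancer cells. Of these, 14, 15 and 16 were below 0, with medians of -0.60, -1.10 and -1.13. At least 2-fold lower were 3, 9 and 9, against 3.30%, 5.20% and 4.65% of all genes. At least 2-fold higher were 1, 0 and 0, against 3.99%, 8.40% and 6.73%. Zbp1, a nucleic acid sensor, went from 84.38 CPM to 35.46, 19.45 and 18.71 CPM. Ifit3 went from 35.09 to 7.309 CPM with anti-LIF (-2.26). The genes that build the GPI anchor did not go down with Ly6a: of 23 measured, 19, 20 and 19 were above 0 in cancer cells. Their medians were 0.29, 0.35 and 0.34, against 0.16, 0.20 and 0.19 for all genes.

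In T cells the type I interferon list lay the other way, as Ly6a and Ly6e did, and the interferon gamma list did so only slightly. Of 20 interferon gamma targets 17, 13 and 15 were above 0. Their medians were 0.18, 0.22 and 0.27, against 0.09, 0.05 and 0.08 for all genes. In CD8 T cells 14, 12 and 13 of 19 were above 0, with medians of 0.24, 0.10 and 0.19. In CD4 T cells 6, 13 and 6 of 18 were above 0, with medians of -0.11, 0.10 and -0.04. Over all T cells Cxcl10 went from 91.21 to 220.9 CPM with anti-LIF (1.28) and 230.7 CPM in combo (1.34), while Cxcl9 was lower by log2 ratios of -1.10 and -1.28. Of the type I targets 11 of 12, 11 of 13 and 11 of 13 were above 0, with medians of 0.94, 0.90 and 0.95 against 0.09, 0.05 and 0.08 for all genes. Ifit1, an RNA-binding interferon gene, went from 28.82 CPM to 66.52, 90.93 and 129.2 CPM. Rsad2, which encodes viperin, went from 8.002 to 26.23 CPM with anti-LIF and 37.37 CPM in combo. Oasl1 lay the other way with anti-PD-1, at 0.7602 against 9.262 CPM (-3.29).

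In macrophages 17, 20 and 20 of 21 interferon gamma targets were below 0, with medians of -0.54, -0.94 and -1.15. Cxcl9 went from 1338 to 316.7 CPM with anti-LIF (-2.08) and 275 CPM in combo (-2.28), and Gbp2 from 731.5 to 229.2 and 191.4 CPM. The type I targets there had medians of -0.01, -0.01 and -0.00, so in macrophages the 2 lists differed. All 3 comparisons share the control library, and the lists were chosen with earlier results known.

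Of 31 further genes of the Ly6/uPAR fold, 6 had no UMI and 10 had at least 200. Plaur, the urokinase receptor, had 81705 UMIs and was highest in neutrophils (1230 CPM), followed by monocytes (816 CPM). Lynx1, a modulator of nicotinic receptors, had 4532 and was highest in muscle (188.5 CPM). Gpihbp1, which carries lipoprotein lipase across vessel walls, had 2853 and was highest in endothelium (348.6 CPM). Cd59a, an inhibitor of complement lysis, had 2651 and was highest in pericytes (117.2 CPM). Ly6g5b, in T cells (31.13 CPM), had 1024 UMIs. Ly6k, Ly6g6e, Slurp1, Lypd1 and Lypd3 had 222 to 401 UMIs each. In cancer cells 6 of these 31 were measured, of which 2, 1 and 1 were at least 2-fold lower than control (3.30%, 5.20% and 4.65% of all genes) and 0, 0 and 1 at least 2-fold higher (3.99%, 8.40% and 6.73%).

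The genes whose levels ran most like each member were listed by Pearson's r of log2(CPM + 1) over the 46 sums of class and library, among 11225 genes. Creb3l2 was nearest to Ly6a (0.842), then Fam171a1 (0.829) and Cdr2 (0.808). Igfbp7 (0.935), Col4a2 (0.929) and Tshz2 (0.922) were nearest to Ly6c1, and Itgal (0.831), Atp8b4 (0.806) and Bin2 (0.799) to Ly6c2. Parp14 (0.768), Gbp3 (0.73) and Evl (0.714) were nearest to Ly6e. Cd79a (0.792), Iglc3 (0.764) and Mzb1 (0.717) were nearest to Ly6d, Stfa2l1 (0.874), Cxcr2 (0.834) and Asprv1 (0.827) to Ly6g, and Mefv (0.877), F10 (0.874) and Gm5150 (0.871) to Ly6i. Cd79a, Mzb1, Stfa2l1 and Cxcr2 are themselves gate markers.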

How the data were processed

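Single-cell 3′ RNA was measured in 4 libraries. The deposited matrices hold whole-number UMI counts per gene and barcode, and the submitters' processing notes name mm10 and Seurat 4.0.3; the aligner is not given in the sources used here. Per the labels' protocols either of 2 sequencing instruments was used, and which library used which is not stated. A barcode was kept if it had 200 or more genes detected and no more than 20% of its UMIs were mitochondrial. A cell joined the class with most marker UMIs if it had at least 2 distinct markers and at least 2 times the UMIs of the next class. No doublet caller was run, and cells with markers of several classes stayed unplaced. The members, gene lists, markers and gate were chosen with earlier results of these data known. UMIs were summed per class and library. Orders of classes and likeness used classes with at least 50 cells, levels of smaller groups are given with their number of cells, and ratios needed 50 cells in both libraries and 50 UMIs over both. Thinning drew 1000 UMIs per cell and left out shallower cells. Named genes were the 7 members, Ly6/uPAR genes with at least 200 UMIs, the 3 nearest genes to each member and the 3 interferon genes farthest from 0 per comparison described. Free RNA was scaled as the class's Krt18 (or Col1a1) level divided by that of cancer cells (or fibroblasts), times their level of the member. Of the listed genes, 32158 (99.6%) were found in GENCODE M21. The ratio and interval code was tested on simulated data. Python 3.11.15, numpy 2.4.6, scipy 1.17.1, pandas 2.3.3, scanpy 1.11.5, leidenalg 0.10.2, scikit-learn 1.9.0, biopython 1.88 and matplotlib 3.10.9 were used. Alternatives were other filters, gates, Leiden clusters, scalings and thinning; limiting cells by Xist and Epcam and leaving out neutrophil precursors were added after the data were seen.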

Additional observations from a re-analysis of the deposited data

Results flagged for a closer look

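Ly6a and Ly6e moved in opposite directions in cancer cells and T cells of the same libraries. For Ly6a, the log2 ratio to control in T cells minus that in cancer cells was 2.46 with anti-PD-1, 3.29 with anti-LIF and 3.0 in combo. For Ly6e the same differences were 0.94, 1.4 and 1.41. Each was flagged because the 2 classes moved opposite ways, and with 1 library per group the difference was not tested. All of them share the control library, and their signs held under each scaling that was run.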

How the results depend on the processing

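Over 808 recomputed ratios, 538 stayed within their counting interval, 263 moved beyond it and 7 changed sign where the interval had left out 0. Those 7 were Ly6a in combo monocytes (0.27) and Ly6e in combo monocytes (0.02) with the stricter gate, Ly6a in anti-PD-1 dendritic cells (0.28) and Ly6e in anti-PD-1 endothelial cells (-0.01) with Leiden clusters, Ly6a in combo mast cells (0.09) and Ly6c2 in anti-PD-1 T cells (-0.06) with a mean over cells, and Ly6a in anti-PD-1 endothelial cells (0.04) with cells limited by Xist. The cause was not tested.

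For Ly6a in cancer cells with anti-PD-1, at -1.76, the values were -1.44 at up to 10% mitochondrial UMIs, -1.72 with Leiden clusters, -1.83 limited by Xist and Epcam, -1.40 as a mean over cells, -1.51 thinned and -1.92 scaled by the median ratio of all genes. With anti-LIF, at -2.52, they were -2.42 with no filter, -2.80, -2.29, -2.76 and -2.41 in that order up to the mean over cells, and -2.72 scaled. In combo, at -1.95, they were -1.84 with no filter, then -1.80, -1.88, -2.32, -1.48, -1.57 and -2.14. For Ly6a in T cells, anti-PD-1 (0.70) gave 0.83 at up to 10% mitochondrial UMIs, 0.42 limited by Xist, 0.79 as a mean over cells, 0.82 thinned and 0.61 scaled. Anti-LIF (0.77) gave 0.89 and 0.64 under the first 2 of these. Combo (1.05) gave 1.16, 1.16, 0.96 as a mean over cells and 0.97 scaled, so the last 2 fell under 2-fold. With at least 200 UMIs asked of a gene, the share of genes at least 2-fold lower in anti-PD-1 cancer cells was 2.04% in place of 3.30%, and the share at least 2-fold higher in T cells 2.34%, 3.66% and 3.64% in place of 4.43%, 6.37% and 6.03%.

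No paired analysis was possible because each group is 1 library. For the same reason no replicate was left out. Leiden monocytes, monocytes limited by Xist and several subclasses had too few cells or no cluster of that name and gave no value.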
